A study of Mus musculus with 12 samples.

Results

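The comparison described here pooled both tumour models of a mouse melanoma study and asked which genes differed in the same direction between tumours over-expressing Aoah and tumours carrying the empty Vector. All 12 of the 12 deposited libraries entered it, 6 labelled Aoah and 6 labelled Vector, chosen from the sample titles alone. One additive model was fitted to each gene on log2(TPM + 1), with the tumour model as a term, so that Aoah was compared with Vector within each model and a single difference was estimated over both. TPM is an abundance scaled for transcript length and library total. Genes with at least 1 TPM in at least 6 libraries were kept, which left 14087 of 32416 gene symbols.

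The tumours were B16 melanomas, a melanoma line of C57BL/6 origin, implanted under the skin of C57BL/6 mice. The B16mhgp100 model contributed 4 Aoah and 4 Vector tumours, treated with anti-PD1, which blocks a checkpoint receptor of T cells, from day 10 onwards. The B16F10 model contributed 2 Aoah and 2 Vector tumours, treated with anti-PD1 together with anti-CTLA4, which binds a further checkpoint receptor, from day 6 onwards. In both models 4 doses of 200 µg were given, 2 per week, and the harvest followed the last of them by 1 day. Every tumour was thus treated, and no untreated arm was analysed. Model, antibodies and first day of dosing changed together, so a difference between the models cannot be told apart from a difference between the antibodies or the days. The promoter that drives Aoah, and whether each model is 1 clone, are not stated in the labels. Nothing in the labels says that each tumour came from its own mouse, so the spread that the p-values rest on may in part be technical.

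Aoah encodes acyloxyacyl hydrolase, a lipase of phagocytes that removes secondary acyl chains from bacterial lipopolysaccharide and so lowers its activity at the TLR4 receptor. It also acts on some host phospholipids. In tumours treated with checkpoint antibodies, T cells and NK cells release interferon-gamma, and many cells answer by raising the genes that process peptides and display them on MHC molecules. That response acts through short elements in the promoters of its target genes, and Socs1 is a target that feeds back to dampen the same pathway.

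The tissue label was checked against melanocyte genes. Mlana, a melanosome protein, ran from 1186.56 to 1896.92 TPM over the 12 libraries. Each library had 13775 to 14791 genes at 1 TPM or more, and the deposited values keep no read depth. The library labelled B16mhgp100 Aoah 4 stood apart from the others, with a median correlation across genes of 0.835 with the other libraries against 0.922 to 0.959 for the rest. Its 12 keratinocyte genes summed to 7915 TPM against at most 92.7 TPM elsewhere, its 15 skeletal muscle genes to 7709 TPM against at most 1133 TPM, its 10 adipocyte genes to 822.7 TPM against at most 250.3 TPM, and its 8 red blood cell genes, 7 of them in the table, to 5155 TPM against at most 1442 TPM. Its 20 melanocyte genes summed to 8710 TPM against 17458 to 33531 TPM in the others. In B16F10 Vector 2, mitochondrially encoded genes made up 10.4% of the TPM, against at most 6.38% elsewhere. Their part in the differences below was not tested. The gene counts and many of the values below are therefore given with and without B16mhgp100 Aoah 4, though not all are.

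Aoah itself was higher in the libraries labelled Aoah of both models. In B16mhgp100 it stood at 17.92, 22.46, 13.96 and 3.91 TPM in Aoah 1 to 4 and at 7.58, 0.89, 2.43 and 1.57 TPM in Vector 1 to 4. In B16F10 it stood at 21.75 and 23.73 TPM in the Aoah libraries and at 1.49 and 0.75 TPM in the Vector libraries. The groups overlapped only in B16mhgp100, where Aoah 4 lay below Vector 1, so this gene does not check the label of Aoah 4. The additive difference was 2.47 on the log2(TPM + 1) scale (SE 0.46, limma adjusted p = 0.431), and without Aoah 4 it was 2.83 (limma adjusted p = 0.0741). An exact 2-sided permutation test of this gene alone, which exchanged labels within each model over 420 arrangements, gave p = 0.00952, where the smallest possible is 0.00476. Without Aoah 4 the exact permutation test over 210 arrangements gave p = 0.00952.

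No gene passed over both models. At an adjusted p below 0.05 in limma with Benjamini-Hochberg adjustment, 0 of 14087 genes were called, which is 0% of those tested, and the smallest adjusted p was 0.299. An unadjusted p below 0.05 was reached by 1276 genes, 9.06% of those tested, of which 488 (3.46%) were higher and 788 (5.59%) lower in Aoah tumours. Without B16mhgp100 Aoah 4 again 0 of 13937 genes passed, while 2346 (16.8%) reached an unadjusted p below 0.05, 1177 higher (8.45%) and 1169 lower (8.39%), and the smallest adjusted p was 0.0741. With B16F10 Vector 2 also left out, a choice made after seeing the data, 0 of 13754 genes passed (0%), 2602 (18.9%) reached an unadjusted p below 0.05 (857 of them higher, 6.23%, and 1745 lower, 12.7%), and the smallest adjusted p was 0.0875. Every gene described below is therefore a gene that did not pass the additive test, and its values are given as measurements.

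Where the 2 models shared a sign, it was more often negative than positive. The difference of means was above 0 in both models for 2312 genes (16.4%) and below 0 in both for 4992 (35.4%), and the remaining genes took opposite signs. The 2 within-model differences had a Pearson r of 0.0744 across genes, and of 0.201 without Aoah 4. Genes are not replicates, and this r is a description. The additive difference had a median of -0.13 over all genes, made of -0.20 in B16mhgp100 and 0.01 in B16F10. Without Aoah 4 that median was -0.0029, the share above 0 in both models was 28.8% and the share below 0 in both was 33.1%. Median-of-ratios scaling of the libraries moved the median from -0.13 to -0.01. It moved the median within B16mhgp100 from -0.20 to -0.02 and within B16F10 from 0.01 to 0.0071.

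**Figure D1:**
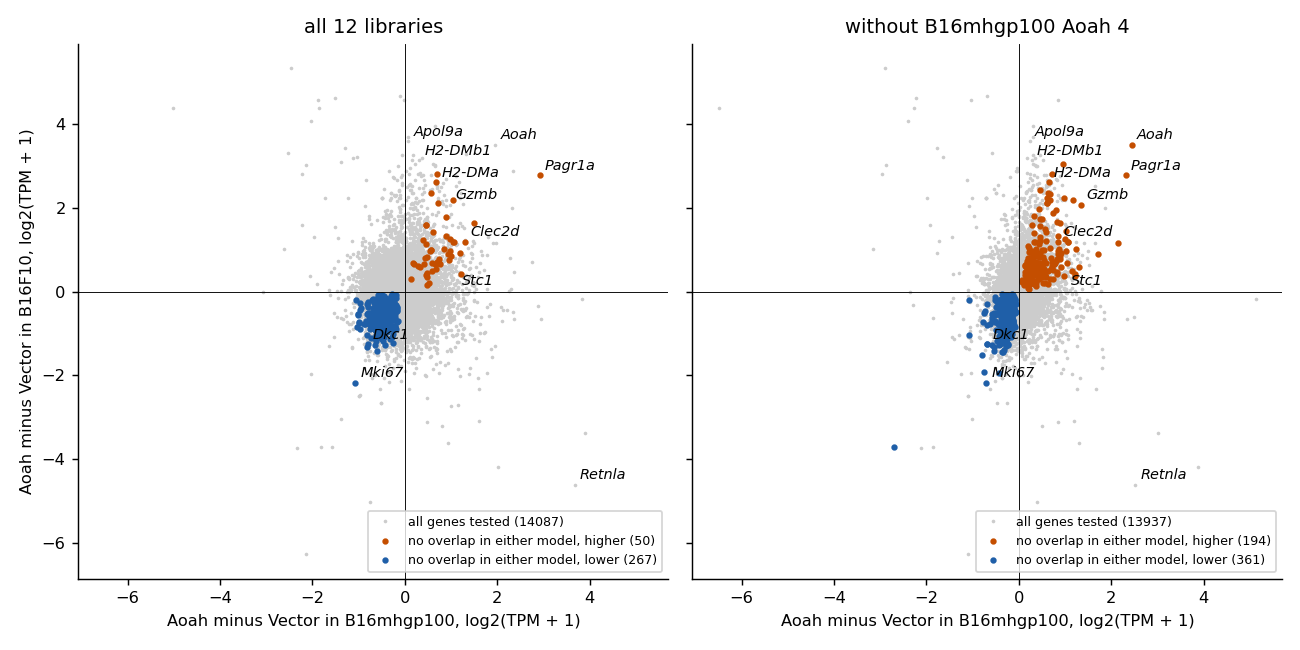
Each grey point is a gene tested, with its Aoah minus Vector difference of mean log2(TPM + 1) in B16mhgp100 on the x axis and in B16F10 on the y axis, for all 12 libraries on the left and without B16mhgp100 Aoah 4 on the right. Orange and blue points are genes whose libraries did not overlap in either model, 50 higher and 267 lower on the left and 194 and 361 on the right, and the grey cloud shows little shared slope (r of 0.0744 and 0.201).

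A stricter description of a shared direction asks that every Aoah library lies above, or every one below, every Vector library of its own model, in both models. This held for 50 genes on the higher side (0.355% of those tested) and 267 on the lower side (1.9%). Of the 420 ways to place the labels within models, 1 separates a gene fully upwards and 1 fully downwards. Some such genes are therefore found without any effect. Without Aoah 4 there are 210 ways, so non-overlap is easier to meet. Of the 50 higher genes, 17 are predicted genes, pseudogenes or unnamed clones, and 46 had an unadjusted p below 0.05 in limma, with a median additive difference of 0.72. Of these genes 2, Hcar2 and Skap1, were below 1 TPM in every Vector library and so passed the filter only through Aoah libraries. Of the 267 lower genes, 20 are predicted genes or pseudogenes, 199 had an unadjusted p below 0.05, and the median was -0.49. Both sets were picked by their separation on these same values, so small p-values and sizeable differences were largely built in. Without Aoah 4 the counts were 194 (1.39%) and 361 (2.59%), and 48 of the 50 and all 267 of the genes named in the full comparison were among them. The 2 that were lost, Hcar2 and Skap1, fell under the filter on low values. Leaving out a library cannot create an overlap, so a gene could be lost only through that filter. That the other genes remained was therefore fixed in advance. With median-of-ratios scaling the counts were 120 (0.852%) and 188 (1.33%), and with B16F10 Vector 2 left out as well as Aoah 4 they were 221 (1.61%) and 717 (5.21%).

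Of the 50 higher genes 7 belong to a gene list described further on, namely Socs1, H2-DMa, H2-T23, Zbp1, Lat, Skap1 and Hk2. Socs1, a feedback inhibitor of cytokine signalling, stood at 9.46, 5.54, 6 and 9.65 TPM in the B16mhgp100 Aoah libraries and at 4.14, 3.16, 5.09 and 4.22 TPM in their Vector counterparts. In B16F10 it stood at 13.08 and 14.12 TPM against 2.69 and 2.05 TPM. All 6 Aoah libraries were higher than the Vector libraries of their model, by the narrowest margin in B16mhgp100 Aoah 2, and the additive difference was 1.19 (SE 0.26, limma adjusted p = 0.472). H2-T23, which encodes the non-classical class I molecule Qa-1, stood at 206.35, 167.09, 158.7 and 146.94 TPM against 140.76, 68.77, 133.59 and 130.32 TPM in B16mhgp100, and at 205.65 and 244.11 TPM against 57.42 and 31.92 TPM in B16F10. Its additive difference was 1.16 (SE 0.32, limma adjusted p = 0.544). The within-model differences of H2-T23 were 0.56 and 2.36, so that the larger share came from B16F10.

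The promoters of 4 genes from the higher set are shown because they hold an interferon-stimulated response element, searched on both strands as GAAA, any 2 bases and GAAA in the 250 bases before a transcription start. They are Clec2d, which encodes a ligand of the inhibitory NK receptor NKR-P1, Ppp1r15a, which encodes the stress-induced phosphatase subunit GADD34, Socs1 and H2-T23. The sequences come from RefSeq promoters of build GRCm38.p6, which is older than the mm39 build named for the expression values, and capitals mark the element. Positions count backwards from -1, the base before the start. The Socs1 stretch is chr16:10785582-10785641 on the minus strand, from -105 to -46, and holds 2 overlapping matches. The H2-T23 stretch is chr17:36032791-36032850 on the minus strand, from -149 to -90, with the element on the opposite strand. The Clec2d stretch is chr6:129180401-129180460 on the plus strand, from -214 to -155, and the Ppp1r15a stretch is chr7:45526454-45526513 on the minus strand, from -245 to -186.
Socs1: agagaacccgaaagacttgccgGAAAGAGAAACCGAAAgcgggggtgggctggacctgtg
H2-T23: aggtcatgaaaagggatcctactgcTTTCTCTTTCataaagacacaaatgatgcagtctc
Clec2d: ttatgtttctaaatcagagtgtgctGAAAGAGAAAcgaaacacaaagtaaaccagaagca
Ppp1r15a: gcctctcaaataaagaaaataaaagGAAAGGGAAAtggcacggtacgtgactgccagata

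The element was found in 2.98% of all 32851 promoters read and in 3.26% of the 10111 tested genes that had a promoter. Among the 50 higher genes, 31 had a promoter and 4 of them (12.9%) held it. Among the 267 lower genes, 213 had a promoter and 3 (1.41%) held it. The gamma-activated sequence, a further interferon element searched on both strands as TTC, any 3 bases and GAA, was in 0 of the 31 promoters of the higher genes, in 25 of 213 (11.7%) of the lower genes, in 7.23% of the tested genes and in 10 of 18 of the interferon-gamma list. The list of type I interferon-stimulated genes held the gamma-activated sequence in 4 of 18 promoters. The interferon-stimulated response element was in 10 of 18 promoters of the interferon-gamma list described further on, and in 9 of 18 of the type I list. A match is a description of letters and not a measured binding site.

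The 2 other genes with such a promoter were less even between libraries. Clec2d stood at 23.07, 32.24, 18.14 and 82.39 TPM against 17.47, 7.13, 15.14 and 13.6 TPM in B16mhgp100, and at 19.56 and 21.57 TPM against 11.18 and 6.29 TPM in B16F10. Its highest value was in Aoah 4, and its difference was 1.26 with that library and 0.98 without it. Ppp1r15a stood at 23.53, 23.12, 28.91 and 82.3 TPM against 17.3, 16.86, 16.25 and 17.23 TPM in B16mhgp100, and at 15.63 and 20.16 TPM against 11.49 and 8.77 TPM in B16F10. Its additive difference was 0.90 (SE 0.27), and 0.62 without Aoah 4, where the unadjusted p was the smaller (0.00015 against 0.00655, limma).

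Among the other genes of the higher set, Zbp1, a sensor of Z-form nucleic acids that triggers necroptosis, had an additive difference of 1.40 (SE 0.39), with 0.69 in B16mhgp100 and 2.81 in B16F10. Gbp8, an interferon-inducible GTPase, stood at 9, 7.66, 5.09 and 4.65 TPM against 2.8, 1.28, 3.8 and 2.88 TPM in B16mhgp100, and at 7.04 and 7.74 TPM against 1.55 and 0.32 TPM in B16F10. All 6 of its Aoah values lay above the Vector values of their model, and its difference was 1.43 (SE 0.28). Ch25h, the interferon-inducible enzyme that makes 25-hydroxycholesterol, had a difference of 0.88 (SE 0.19). Hcar2, the receptor for niacin and beta-hydroxybutyrate on macrophages and neutrophils, had a difference of 1.19 (SE 0.21), at 1.82 to 3.89 TPM in all Aoah libraries and 0.06 to 0.99 TPM in all Vector libraries. Ccl4, a chemokine that draws T cells and monocytes, was outside that set and is named for its small p. It had a difference of 1.54 (SE 0.32), although Aoah 3 of B16mhgp100, at 4.6 TPM, lay below Vector 1 at 5.67 TPM.

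The gene with the second smallest p was Pagr1a, whose product belongs to the KMT2C and KMT2D histone methyltransferase complexes. It stood at 11.36, 11.98, 6.62 and 56.34 TPM in the B16mhgp100 Aoah libraries and at 1.45, 2.22, 0.86 and 0.46 TPM in their Vector counterparts. In B16F10 it stood at 15.21 and 10.06 TPM against 0 and 2.78 TPM. The additive difference of Pagr1a was 2.87 (SE 0.47, limma adjusted p = 0.299), nearly the same in both models at 2.92 and 2.78, and it was 2.49 without Aoah 4. In the authors' deposited tables its log2 fold change was 4.61 (SE 0.89) in B16mhgp100. In B16F10 it was 3.04 with a wide SE of 2.69 (DESeq2 adjusted p = 0.598). Tent5a, a cytoplasmic poly(A) polymerase, was likewise even between models. It ran from 15.55 to 17.94 TPM against 8.43 to 10.64 TPM in B16mhgp100 and stood at 12.31 and 13.16 TPM against 9.38 and 6.34 TPM in B16F10. Its difference was 0.73 (SE 0.14, limma adjusted p = 0.431), with 0.77 and 0.65 in the 2 models. Espn, an actin-bundling protein, had 1.23 in B16mhgp100 and 0.42 in B16F10. AY036118 had an additive difference of 1.55, with 417.58 TPM in Aoah 4 and 57.44 to 88.34 TPM in the other B16mhgp100 Aoah libraries, and the difference was 1.17 without that library.

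**Figure D2:**
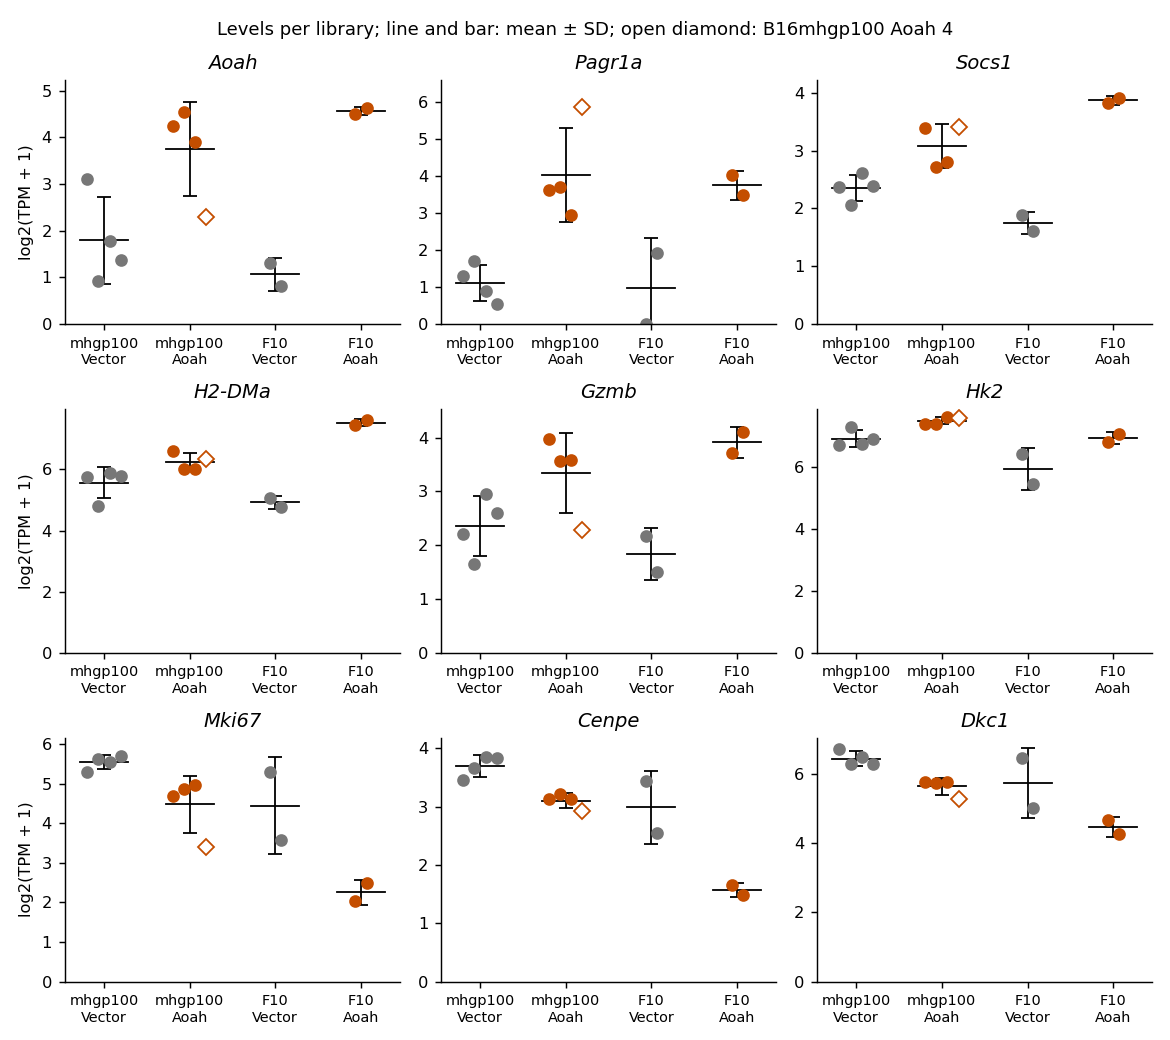
Each panel shows log2(TPM + 1) of one gene in the 12 libraries, with Vector in grey and Aoah in orange, a line and bar for the mean and SD, and an open diamond for B16mhgp100 Aoah 4. Pagr1a, Socs1, H2-DMa and Hk2 lay higher in every Aoah library than in every Vector library of the same model and Mki67, Cenpe and Dkc1 lower, while for Aoah and Gzmb the diamond lay among the B16mhgp100 Vector libraries.

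Of the 267 lower genes 7 belong to a gene list, namely the cell cycle genes Mki67, Cenpe, Top2a and Kif11, the ribosome biogenesis genes Dkc1 and Nolc1, and Phgdh. Mki67, a nuclear marker of proliferation, stood at 24.84, 27.96, 30.02 and 9.49 TPM against 38.54, 48.12, 45.9 and 50.85 TPM in B16mhgp100, and at 3.11 and 4.58 TPM against 38.52 and 10.94 TPM in B16F10. Every Aoah library was lower than every Vector library of its model. The additive difference was -1.44 (SE 0.35, limma adjusted p = 0.544), and -1.25 without Aoah 4. Its promoter is shown as the counterpart on the lower side, with 2 copies of the cell cycle homology region TTTGAA in capitals, in chr7:135716458-135716517 on the minus strand of GRCm38.p6, from -138 to -79.
Mki67: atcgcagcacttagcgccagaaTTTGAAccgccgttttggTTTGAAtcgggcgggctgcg

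That motif, searched on both strands over the same 250 bases, was in 16% of all promoters, in 12.9% of those of the tested genes, in 43 of 213 (20.2%) of the lower genes and in 4 of 31 (12.9%) of the higher genes. The cell cycle list described below held it in 7 of 22 promoters (31.8%).

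Cenpe, a kinesin that links chromosomes to the spindle, stood at 7.79, 8.32, 7.74 and 6.57 TPM against 9.93, 11.62, 13.47 and 13.31 TPM in B16mhgp100, and at 2.14 and 1.81 TPM against 9.8 and 4.85 TPM in B16F10. Its additive difference was -0.87 (SE 0.20) with all libraries and -0.86 without Aoah 4, nearly the same value. Dkc1, the pseudouridine synthase of box H/ACA RNA particles and telomerase, ran from 37.68 to 53.66 TPM against 76.6 to 103.58 TPM in B16mhgp100 and stood at 24.66 and 18.25 TPM against 86.1 and 31.4 TPM in B16F10. Its difference was -0.95 (SE 0.23), and -0.89 without Aoah 4. Smc1a, a ring subunit of cohesin, had a difference of -0.86, and Kif4, a chromosome-bound kinesin, had -0.89. For Kif4 the value without Aoah 4 was -0.56, since Aoah 4 stood at 3.33 TPM and the other B16mhgp100 Aoah libraries at 17.23 to 19.09 TPM.

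Of the other named genes lower without overlap, Zdhhc2, a palmitoyltransferase, stood at 31.49, 21.06, 26.87 and 14.25 TPM against 40.63, 49.64, 44.84 and 35.89 TPM in B16mhgp100, and at 9.66 and 8.96 TPM against 17.38 and 16.18 TPM in B16F10. The differences within the models were -0.89 and -0.79. Prss12, a secreted serine protease, had an additive difference of -0.90 (SE 0.19), with -0.99 and -0.73. Map7d2, a microtubule-associated protein, had -0.86 (SE 0.18), with -0.65 and -1.27. Zfp959, a zinc finger gene, had -0.73 (SE 0.17). Slc39a10, a zinc importer, had -0.86, and Robo1, an axon guidance receptor, had -0.85, and without Aoah 4 these were -0.55 and -0.57. Limch1, an activator of non-muscle myosin, had -0.99. With median-of-ratios scaling Zfp959, Limch1, Cenpe and Kif4 overlapped between the groups in at least 1 model, with their additive differences still below 0. P3h2, a collagen prolyl hydroxylase, had -0.96 and -0.47 without Aoah 4, where it stood at 1.43 TPM against 17.94 to 20.94 TPM in the other B16mhgp100 Aoah libraries.

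The higher and lower sets also differed in transcript length. The median length was 1006 bases for the 48 higher genes with a known length, 1557 bases for 261 lower genes and 1278 bases over 13486 tested genes. Across genes the additive difference had a Spearman rho of -0.146 with length, and of -0.0204 without Aoah 4. The part of length in the 2 sets was not tested.

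Gene lists were described by how many of the tested members lay above or below 0 in both models, how many had an unadjusted p below 0.05 in limma, and the median additive difference. The same figures over all genes were 16.4% above 0 in both models, 35.4% below 0 in both, 3.46% higher and 5.59% lower at an unadjusted p below 0.05, and a median of -0.13. The lists and their members were chosen with earlier results of these data known. An excess of a list over these shares may therefore be partly built in. Here, as in all bulk tissue, fewer cells of a type and less RNA per cell cannot be told apart.

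MHC class II genes, which present peptides to CD4 T cells, had the highest median of the 30 lists. Of 12 members 10 were tested, 9 lay above 0 in both models, and 7 had an unadjusted p below 0.05. The median difference was 1.27, with 0.62 in B16mhgp100 and 2.48 in B16F10, and 1.30 without Aoah 4. H2-DMa, a chain of the editor that loads peptides, was the member without overlap in either model, at 63.07 to 96.81 TPM against 27.06 to 58.58 TPM in B16mhgp100 and 174.78 and 193.65 TPM against 32.72 and 26.14 TPM in B16F10. Cd74, the invariant chain, had an additive difference of 1.29 (SE 0.34), and H2-Aa and H2-Ab1, the chains of I-A, had 1.41 and 1.31. In B16mhgp100 these 3 genes overlapped between the groups. H2-Aa, for example, stood at 300.19 TPM in Vector 1 and at 161.89 TPM in Aoah 3.

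MHC class I and peptide processing genes, which serve CD8 T cells, had a median of 0.76, with 0.11 in B16mhgp100 and 1.99 in B16F10. Of 20 tested members 12 lay above 0 in both models and 12 had an unadjusted p below 0.05. Without Aoah 4 all 20 lay above 0 in both models, 19 had such a p, and the median was 0.90. Psmb9 and Psmb10, subunits of the immunoproteasome, had additive differences of 1.44 and 1.27, and H2-Q7, a class Ib molecule, had 1.29. Psmb10 stood at 1426.4 TPM in Aoah 4 and at 316.06 to 433.33 TPM in the other B16mhgp100 Aoah libraries, and its difference was 1.01 without that library. Near-identical class I genes share reads, so the values of single H2 genes are less certain.

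The counts of both interferon lists moved with Aoah 4. Of 22 tested interferon-gamma response genes 10 lay above 0 in both models and 6 had an unadjusted p below 0.05, and without Aoah 4 these counts were 20 and 18. The median was 0.80, then 1.12, with -0.0025 in B16mhgp100 and 2.16 in B16F10 in the full comparison and 0.40 in B16mhgp100 without Aoah 4. Irf8, a transcription factor of dendritic cells and macrophages, stood at 78.27, 61.87, 71.86 and 25.41 TPM against 45.37, 21.62, 41.34 and 39.87 TPM in B16mhgp100, and at 123.07 and 139.25 TPM against 24.51 and 9.06 TPM in B16F10. Only Aoah 4 lay among the Vector libraries, and the difference of Irf8 was 1.41 with it and 1.73 (SE 0.38) without it. Ifng, the cytokine itself, was at 0 to 2.76 TPM in all libraries, with a difference of 0.75 (SE 0.27). Upp1, a uridine phosphorylase, had 0.91. Of 25 type I interferon-stimulated genes 13 lay above 0 in both models and 6 had an unadjusted p below 0.05, and these counts were 23 and 19 without Aoah 4, with medians of 0.39 and 0.63. With median-of-ratios scaling the counts were 17 and 11 for the interferon-gamma list and 19 and 12 for the type I list. Bst2, or tetherin, had a difference of 0.64, Irf7 had 0.78 and Xaf1 had 0.62.

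Cytotoxic genes had larger median differences in B16F10 than in B16mhgp100. Of 10 tested CD8 and cytotoxic effector genes 9 lay above 0 in both models and 9 had an unadjusted p below 0.05, with a median of 1.16, made of 0.46 in B16mhgp100 and 2.50 in B16F10. Without Aoah 4, 6 of 9 tested lay above 0 in both models, 3 took opposite signs, 8 had such a p and the median was 1.15. Gzmb, or granzyme B, stood at 14.66, 10.79, 11.03 and 3.84 TPM against 3.64, 2.16, 6.78 and 5.1 TPM in B16mhgp100, and at 12.06 and 16.33 TPM against 3.53 and 1.83 TPM in B16F10. Prf1, or perforin, stood at 3.96, 3.79, 4.23 and 1.35 TPM against 1.63, 1.19, 2.05 and 1.27 TPM in B16mhgp100, and at 6.75 and 9.84 TPM against 0.87 and 1.01 TPM in B16F10. For both genes every Aoah library except Aoah 4 lay above the Vector libraries of its model. The additive difference of Gzmb was 1.35 (SE 0.34) and that of Prf1 1.23 (SE 0.30), and without Aoah 4 they were 1.61 and 1.45 (limma adjusted p = 0.0816 for each). Nkg7, a cytotoxic granule protein, had 0.65 in B16mhgp100 and 3.94 in B16F10, and Gzma, or granzyme A, had 0.57 and 1.09.

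T cell receptor genes had 15 of 20 members tested, 11 above 0 in both models and 8 with an unadjusted p below 0.05, and a median of 0.84, with 0.15 in B16mhgp100 and 2.12 in B16F10. Without Aoah 4, 8 of 14 lay above 0 in both. Lat, an adaptor of T cell receptor signalling, stood at 2.59, 2.74, 2.65 and 6.8 TPM against 2.49, 1.96, 2.07 and 1.62 TPM in B16mhgp100, and at 9.72 and 10.91 TPM against 5.03 and 4.49 TPM in B16F10, a separation of groups in both models by small margins. Trbc2, a receptor constant gene, stood at 19.23 TPM in Aoah 4 and at 2.35 to 5.25 TPM in the other B16mhgp100 Aoah libraries. The low TPM of these genes limits their precision. Checkpoint genes had 6 of 10 above 0 in both models and a median of 0.48, with Lag3 at 1.31 and Pdcd1, which encodes PD-1, at 1.16. CD4 and regulatory T cell genes had 3 of 6 above 0 in both models and none with an unadjusted p below 0.05, and Foxp3 was under the filter. NK cell genes had 4 of 10 members tested, all 4 above 0 in both models and 2 of 4 without Aoah 4, with Klrd1, or CD94, at 1.07 (SE 0.27), and Ncr1, the defining marker, was under the filter. Genes of the CXCR3 axis and T cell homing had 3 of 10 above 0 and 3 below 0 in both models with a median of 0.22, and 7 above 0 with median-of-ratios scaling.

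Lipopolysaccharide recognition and inflammatory cytokine genes are the list closest to the known substrate of the Aoah enzyme. Of 22 members 18 were tested, 14 lay above 0 in both models, and 9 had an unadjusted p below 0.05. Its median of 0.73 was similar in B16mhgp100 (0.51) and B16F10 (0.75), and it was 0.65 without Aoah 4. Nos2, the inducible nitric oxide synthase, stood at 11.67, 20.49, 2.82 and 1.33 TPM against 4.27, 1.15, 1.63 and 2.71 TPM in B16mhgp100, and at 14.31 and 19.14 TPM against 3.04 and 1.32 TPM in B16F10. In B16mhgp100 only 2 of its 4 Aoah values lay above all Vector values, and the additive difference was 1.58 (SE 0.52), or 1.97 without Aoah 4. Ccl3, a chemokine, had 1.11 (SE 0.29), and Il1b, the inflammasome cytokine, had 0.87 (SE 0.29). Il6, Il1a, Il10 and Il12b were under the filter. In the eicosanoid and arachidonate phospholipid list 6 of 18 lay above 0 in both models, with a median of 0.16. Ptgs2, or cyclooxygenase-2, had 0.91 (SE 0.27), at 0.10 to 3.88 TPM over all libraries, and the prostaglandin synthases Ptges and Ptgis had 0.69 and 1.04, both with their highest value in Aoah 2 of B16mhgp100, and 0.40 and 0.57 without that library.

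Macrophage and monocyte genes had 16 of 20 members above 0 in both models with medians of 0.47 in each model, yet only 2 had an unadjusted p below 0.05. C1qa, a complement chain of macrophages, stood at 267.81, 653.95, 61.09 and 774.74 TPM against 330.83, 55.92, 148.67 and 126.33 TPM in B16mhgp100, and at 397.3 and 329.89 TPM against 159.38 and 167.58 TPM in B16F10. The B16mhgp100 groups overlapped widely, while the B16F10 groups did not overlap, and the additive difference was 1.14 (SE 0.57). Genes of alternative macrophage activation took opposite signs, with a median of 1.24 in B16mhgp100 (0.91 without Aoah 4) and -1.21 in B16F10, and 1 of 14 above 0 in both models. Retnla, a secreted product of such macrophages that was chosen after its values were seen, stood at 48.95, 203.82, 5.32 and 992.11 TPM against 5.43, 9.87, 4.9 and 4.85 TPM in B16mhgp100, and at 18.87 and 15.48 TPM against 570.61 and 339.8 TPM in B16F10. Its difference was 3.68 in B16mhgp100 and -4.61 in B16F10, and the test of the difference between models did not pass (limma adjusted p = 0.43). Aoah 4 held the highest of these values, and Aoah 3 lay among the B16mhgp100 Vector libraries. Leaving out 1 library, the additive difference of Retnla ran from -0.108 to 1.7. Dendritic cell genes had 4 of 11 above 0 in both models, neutrophil genes 5 of 7 (3 of 6 without Aoah 4), and B and plasma cell genes 0 of 4.

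Of the cell cycle genes all 24 members were tested, 17 lay below 0 in both models, 5 had an unadjusted p below 0.05 on the lower side and none on the higher side, and 4 (Mki67, Cenpe, Top2a and Kif11) did not overlap in either model. The median was -0.35, with -0.44 in B16mhgp100 and -0.34 in B16F10, against the median of -0.13 over all genes. Without Aoah 4, 18 lay below 0 in both models and the median was -0.18, against -0.0029 over all genes. With median-of-ratios scaling 14 lay below 0 in both models, 5 were lower and 1 higher at such a p, the median was -0.21 against -0.01 over all genes, and only Mki67 of the 4 still did not overlap. Top2a, the DNA topoisomerase of dividing cells, ran from 114.89 to 149.72 TPM against 160.82 to 172.69 TPM in B16mhgp100 and stood at 75.35 and 92.89 TPM against 205.25 and 110.4 TPM in B16F10. Its additive difference was -0.45, and -0.285 without B16F10 Vector 1. The 2 B16F10 Vector libraries were unequal for these genes, with Mki67 at 38.52 TPM in Vector 1 and 10.94 TPM in Vector 2. Ribosome biogenesis genes had 9 of 20 below 0 in both models, 5 with an unadjusted p below 0.05 and a median of -0.27. Without Aoah 4 these counts were 11 and 7, and the median was -0.18. With median-of-ratios scaling these counts were 6 and 3, the median was -0.13, and Dkc1 but not Nolc1 remained without overlap. Among the members were Nolc1, a nucleolar phosphoprotein, at -0.59, Npm1, or nucleophosmin, at -0.52, and Nop58, a box C/D particle core protein, at -0.47, or -0.296 without B16F10 Vector 1. For Nop58 Aoah 4 stood at 152.4 TPM, above all other B16mhgp100 libraries, while Dkc1 and Nolc1 were lowest there among the B16mhgp100 libraries.

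Metabolic lists were mixed. Of 22 hypoxia and glycolysis genes 13 lay above 0 in both models and 6 had an unadjusted p below 0.05, and without Aoah 4 these counts were 16 and 15, with medians of 0.27 and 0.50. With median-of-ratios scaling they were 15 and 10. Hk2, a hexokinase of glycolysis, was apart in every library, at 166.26, 168.27, 193.63 and 189.43 TPM against 103.73, 155.97, 106.93 and 119.97 TPM in B16mhgp100, and at 110.66 and 133.05 TPM against 84.38 and 43.15 TPM in B16F10, with a difference of 0.71 (SE 0.18). Adm, or adrenomedullin, had 0.58 and 0.79 without Aoah 4. Stc1, the secreted stanniocalcin 1, and Higd1a, a mitochondrial protein induced by hypoxia, had differences of 1.11 and 1.05 in B16mhgp100, against 0.03 and -0.02 in B16F10, and the test of that difference between models did not pass for either (limma adjusted p = 0.69 and 0.84). The letters ACGTG, the core of the hypoxia response element searched on both strands, were in 12 of 20 promoters of the list (60%), against 25.3% of the tested genes. Cholesterol synthesis genes had a median of -0.44 with all libraries and -0.11 without Aoah 4. Of 18 ATF4 and serine synthesis genes 4 lay above and 4 below 0 in both models, and among them Phgdh, the first enzyme of serine synthesis, was lower without overlap, at 128.09 to 236.29 TPM against 279.93 to 302.63 TPM in B16mhgp100 and 106.29 and 94.95 TPM against 163.68 and 106.69 TPM in B16F10.

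Melanocyte and pigment genes had a median of -0.63 in B16mhgp100, -0.18 there without Aoah 4, and 0.36 in B16F10, and 3 of 19 lay below 0 in both models. Kit, the receptor of melanoblasts and mast cells, had an additive difference of -1.02 (SE 0.30). Endothelial genes had a median of -0.44, with 11 of 16 below 0 in both models and 6 with an unadjusted p below 0.05, all lower. With median-of-ratios scaling these counts were 8 and 1, and the median was -0.33. Pecam1, or CD31, stood at 33.83, 26.8, 17.17 and 24.59 TPM against 53.32, 19.72, 36.5 and 30.88 TPM in B16mhgp100, and at 10.15 and 7.61 TPM against 23.12 and 34.03 TPM in B16F10. Only in B16F10 were its groups apart, and the additive difference was -0.79 (SE 0.29). Cdh5, the cadherin of endothelial junctions, had -0.86, and without Aoah 4 it had -0.63. Fibroblast and collagen genes had medians of 0.32 in B16mhgp100 and -0.86 in B16F10. Of 18 tested, 2 lay above 0 and 4 below 0 in both models, 12 took opposite signs, and 0 had an unadjusted p below 0.05. Among them Postn, a matrix protein, had -1.24 (SE 0.58), while Thy1 lay at 0.465 to 1.06 leaving out 1 library. The 13 mitochondrially encoded genes had a median of -0.39, with 8 below 0 in both models and 3 lower at an unadjusted p below 0.05 in limma. With median-of-ratios scaling the median was -0.25, and these counts were 7 and 1. In B16F10 their sum in the Aoah libraries, 62417 and 58196 TPM, lay above Vector 1 (48753 TPM) and below Vector 2.

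**Figure D3:**
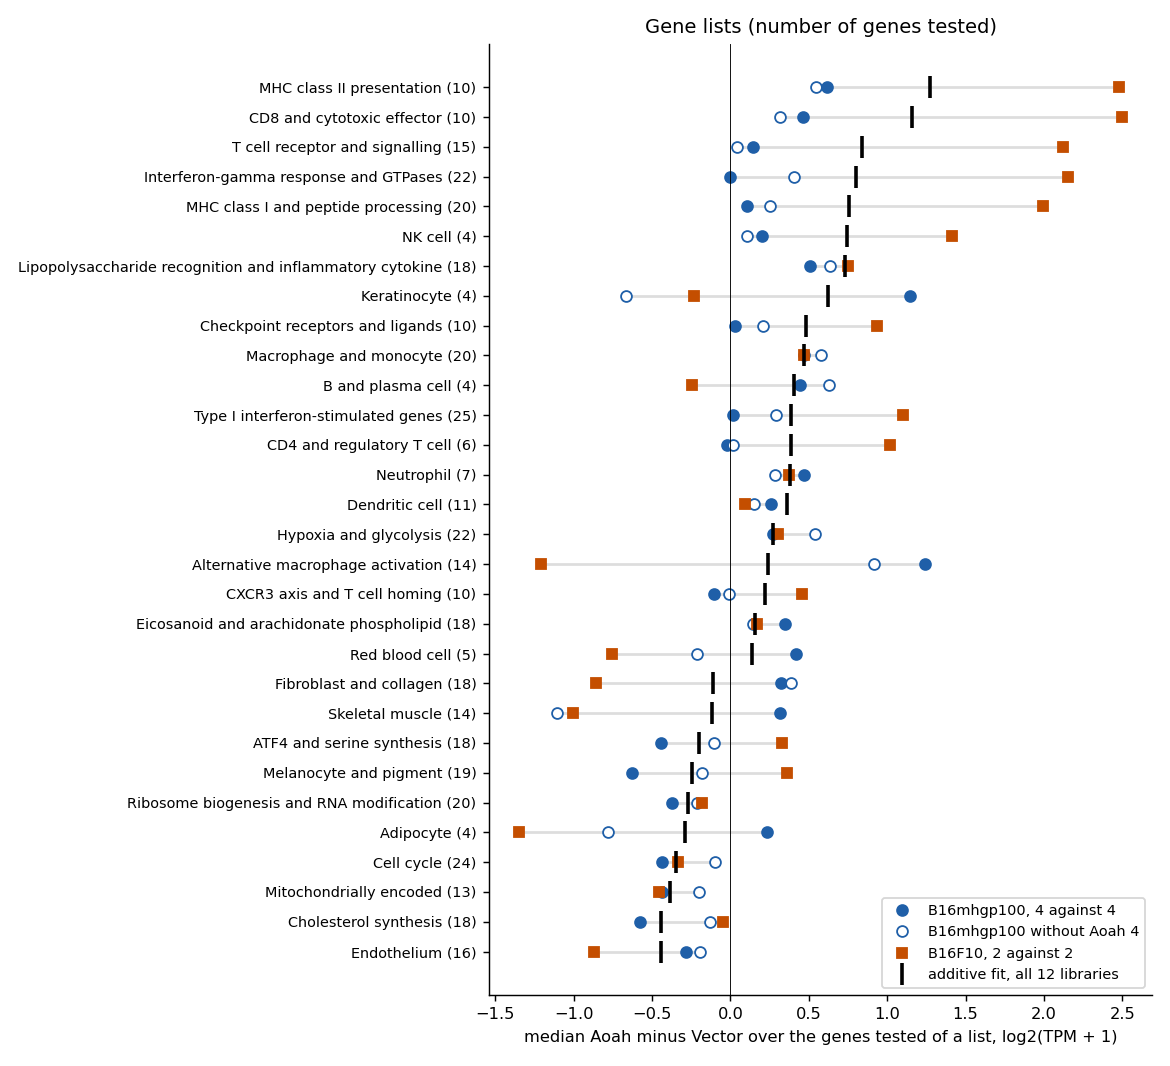
Each row is a gene list with the number of its genes tested, and the x axis gives the median Aoah minus Vector difference on the log2(TPM + 1) scale, as blue circles for B16mhgp100 (open without Aoah 4), orange squares for B16F10 and black bars for the additive fit. MHC class II genes lay highest at 1.27, the B16F10 median exceeded the B16mhgp100 median for MHC, interferon and T cell lists, and the keratinocyte and skeletal muscle medians in B16mhgp100 changed sign without Aoah 4.

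The test of the difference between models found 2 genes of 14087, 0.0142%, and 781 genes (5.54%) at an unadjusted p below 0.05. H2-DMb1, a partner chain of H2-DMa, stood at 114.72, 75.21, 77.5 and 97.89 TPM against 79.46, 56.59, 83.28 and 71.63 TPM in B16mhgp100, and at 229.52 and 264.11 TPM against 26.31 and 27.83 TPM in B16F10. The B16mhgp100 groups overlapped while the B16F10 groups were far apart, and the B16F10 difference exceeded that of B16mhgp100 by 2.82 (limma adjusted p = 0.0346). Apol9a, an interferon-inducible apolipoprotein L gene with near-identical copies, differed by 3.52 (limma adjusted p = 0.0438), from 0.07 in B16mhgp100 to 3.59 in B16F10. Psmb8, an immunoproteasome subunit, had 0.36 and 3.18, H2-K1, a classical class I chain, had 0.18 and 2.35, and Cd8a, the CD8 alpha chain, had 0.18 and 3.25, and none of these 3 differences passed (limma adjusted p = 0.055, 0.069 and 0.073). Without Aoah 4 the number of genes past the threshold was 37 (0.265%), with the B16F10 difference the more positive in 29 and the more negative in 8, and with B16F10 Vector 2 also left out it was 464 (3.37%). The count was 5 without B16F10 Vector 1, 2 without B16mhgp100 Aoah 1, 1 without B16mhgp100 Vector 2, and 0 without each of the other 8 libraries in turn.

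The outcome of the shared test depended on how the fit was set up. The additive fit gives B16mhgp100, with 8 libraries, more weight than B16F10, with 4. It also leaves any difference between the models in the residual, while a fit of 4 group means does not. Averaging the 2 within-model differences of the latter fit with equal weight changed weight and residual together. Their parts were not tested apart. With that average, 24 genes passed as higher (0.17%) and 2 as lower (0.0142%), all of the same sign in both models. In all 26 the B16F10 difference was the larger, and in the 24 higher genes the median difference was 0.41 in B16mhgp100 and 2.77 in B16F10. Only 7 of these 24 did not overlap in either model, Socs1 and H2-DMa among them (adjusted p = 0.0183 for each in limma), and Aoah passed with an adjusted p of 0.0485. With library weights estimated by limma, which gave Aoah 4 a weight of 0.0351 and the 2 B16F10 Vector libraries 0.351 and 0.342, 98 genes passed as higher (0.696%) and 41 as lower (0.291%), of which 95 and 40 had the same sign in both models. Under those weights Pagr1a had an adjusted p of 0.00231, Aoah of 0.00398 and Tent5a of 0.00409 in limma.

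Receptor repertoire measures, which count T and B cell receptor transcripts by clone, were compared over both models as a further readout of the same libraries. Of 20 deposited measures 8 had a value in every library and were no isotype ratio, and 0 of these 8 (0%) passed an exact 2-sided permutation test within models, with 0 at an unadjusted p below 0.05. The number of clones of the T cell receptor beta chain, TRB, was 6, 6, 7 and 4 in the B16mhgp100 Aoah libraries and 5, 3, 8 and 3 in the Vector libraries, and 30 and 32 against 2 and 1 in B16F10. The groups overlapped in B16mhgp100 and were far apart in B16F10. The mean difference over both models was 10.5 clones (exact permutation p = 0.0952, adjusted p = 0.314), made of 1 clone in B16mhgp100 and 29.5 in B16F10. Distinct TRB clonotypes differed by 7 (exact permutation p = 0.0714, adjusted p = 0.314), and clones of the alpha chain, TRA, by 7 (exact permutation p = 0.148, adjusted p = 0.314). Immunoglobulin heavy chain clones, IGH, were 22, 35, 0 and 0 against 10, 1, 1 and 0 in B16mhgp100, and 2 and 3 against 45 and 0 in B16F10, with signs that differed between the models.

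**Figure D4:**
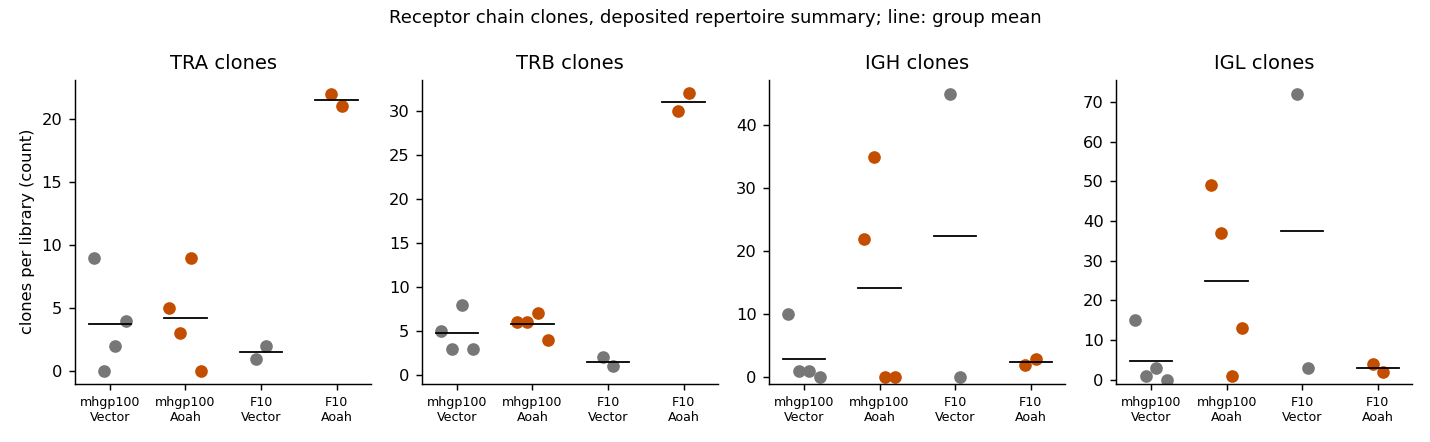
Each panel gives the number of clones of one receptor chain per library on the y axis, with Vector in grey, Aoah in orange and a line for the group mean. In B16F10 the 2 Aoah libraries held 30 and 32 TRB clones against 2 and 1, while the B16mhgp100 groups overlapped for TRA, TRB, IGH and IGL clones.

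The authors' deposited tables, which tested each model alone, called 3 genes in B16mhgp100 (0.0146%), all higher, and 1222 in B16F10 (8.53%), 666 higher and 556 lower. Only Retnla was called in both of the authors' deposited tables, with opposite signs. Of the genes called higher in B16F10 in the authors' deposited table, 446 of 666 (67%) were also above 0 in their B16mhgp100 table, and of those called lower 282 of 556 (50.7%) were also below 0 there. Among all 14326 genes with an adjusted p in the authors' deposited B16F10 table and a value in their B16mhgp100 table, 49.7% were above 0 and 50.3% below 0 in B16mhgp100. These shares use different tumours for the 2 models, with no library in common.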

How the data were processed

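RNA from 12 mouse tumours was sequenced as poly(A) libraries. The authors deposited expression as log2 of TPM plus 1, made with RSEM on mm39 per the submitters' processing notes; back-transformed TPM lay on a grid of 0.01 for all but 41 symbols (tolerance 1e-05), and read depth is unknown. The authors also deposited receptor clone numbers per library and, per model, tables whose file headers give log2 fold changes, a test score and p-values, made with DESeq2 per the submitters' processing notes. Deposited values in the repertoire table carry no stated caller settings.

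Genes with 1 TPM or more in 6 libraries were fitted with limma 3.58.1 (R 4.3.3) on log2(TPM + 1), trend on, with model and Aoah as terms, and p-values were adjusted by Benjamini-Hochberg over all 14087 genes. Differences within and between models came from a fit of 4 group means. The script was tested on simulated data. Single values used an exact 2-sided permutation within models, with every arrangement enumerated (numpy 2.4.6). Promoters came from RefSeq (GRCm38.p6), matched by symbol, with 10111 of 14087 tested genes matched.

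Named were Aoah, 6 genes per direction by p where none passed, up to 12 non-overlapping genes per direction by size, 5 genes of the difference between models and up to 4 per list by p, leaving out predicted genes. Genes with the smallest p without B16mhgp100 Aoah 4 were also picked after seeing the values, as were Retnla, Stc1 and Nos2. Other-tissue and mitochondrial lists were used as sums or medians. The members and lists were chosen with earlier results of these data known. Alternatives left out each library, and changed the pseudocount, filter, scaling, weights, model term, prior and replicate block; leaving out B16mhgp100 Aoah 4 together with B16F10 Vector 2 was added after seeing the data.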

Additional observations from a re-analysis of the deposited data

Results flagged for a closer look

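In 37 of 280 groups of 4 B16mhgp100 libraries tested (13.2%), 1 library lay far from the other 3, by a gap above Dixon's critical value for 4 samples. Chance flags about 1 in 20 groups that were not chosen by their values. The genes tested here were the named ones, some chosen by their p without Aoah 4 and some by the size of a difference. That rate is therefore no reference for them, and the tally by library is a description. Of the 37, 21 were in Aoah 4, 6 in Vector 2, 5 in Vector 1, 2 in Aoah 2, 1 each in Aoah 1, Aoah 3 and Vector 3, and 0 in Vector 4. The values that follow are log2(TPM + 1) in that library unless stated.

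Aoah 4 was the lowest of its group for Dkc1 (5.274), Mki67 (3.391), P3h2 (1.281), Kif4 (2.114), Slc39a10 (2.021), Smc1a (3.663), Robo1 (1.328), Top2a (6.857), Phgdh (7.012) and Prf1 (1.233). For the lower genes among these, the 3 other B16mhgp100 Aoah libraries also lay below every Vector library. Aoah 4 also stood apart for Lat (2.963), Ikzf2 (2.551), Tnfrsf4 (2.478), Cxcl11 (3.45), Cxcr3 (1.176), Xcl1 (2.367), Xbp1 (5.391), Lpcat2 (4.891), Mitf (5.605), Psat1 (5.258) and Gtf2a2 (6.314).

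Vector 2 stood apart for H2-DMa (4.81), H2-T23 (6.125), Upp1 (3.513), Cxcr3 (2.438), Phgdh (8.134) and Retnla (3.442). Vector 1 stood apart for Zfp959 (2.539), Igkc (2.536), Ptgis (1.963), Plat (3.772) and the number of IGH clones (10). Aoah 2 did so for Cd4 (1.941) and Lag3 (1.39), Aoah 1 for Zbp1 (7.715), Aoah 3 for H2-Ab1 (7.392) and Vector 3 for Hcar2 (0.4957).

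The Aoah difference itself differed between the models for H2-DMb1, by 2.82, and for Apol9a, by 3.52, by limma's test of that difference.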

How the results depend on the processing

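No gene passed over both models in any of the 12 fits that left out 1 library, nor with the pseudocount of 0.1, 1 TPM in all libraries, median-of-ratios scaling, no model term, the robust prior or both libraries that stand apart left out; unadjusted p below 0.05 was reached by 679 to 2346 genes in the 12 fits. With no filter on low values 1 gene passed as higher and 1 as lower, 2 of them with the same direction in both models. With equal weight of the models these counts were 24, 2 and 26, and with library weights 98, 41 and 135. The non-overlapping higher genes numbered 54 to 194 leaving out 1 library (115 without B16mhgp100 Aoah 2, 139 without Aoah 3, 194 without Aoah 4, 120 without Vector 1, 90 without Vector 2), 120 with median-of-ratios scaling and 221 without both libraries that stand apart. The lower genes numbered 285 to 603 (448 without B16mhgp100 Aoah 2, 431 without Vector 1, 421 without Vector 2, 603 without B16F10 Vector 2) and 717 without both; fewer samples make non-overlap easier to meet. Genes past the test of the difference between models numbered 0 to 37 leaving out 1 library, 1 with the pseudocount of 0.1, 46 with no filter, 6 with median-of-ratios scaling, 20 with library weights, 1 with the robust prior and 464 without both. The difference of Aoah was 2.73 with equal weight and 2.68 with library weights, past the threshold in both, and 2.28 to 2.83 leaving out 1 library. Among the named genes, signs reversed for S100a8 (-0.11 with library weights), Retnla (-0.467 with equal weight, -0.108 to 1.7 leaving out 1 library) and Cd22 (-0.14 to 0.25 leaving out 1 library). Leaving out 1 library, list medians crossed 0 for alternative macrophage activation (-0.299 to 0.778), melanocyte and pigment (-0.334 to 0.0487) and ATF4 genes (-0.397 to 0.0257). They also did so for fibroblast and collagen (-0.41 to 0.0716), keratinocyte, skeletal muscle, adipocyte and red blood cell genes. With equal weight the median of alternative macrophage activation turned from 0.24 to -0.27. Except where given, the cause was not tested. Repertoire measures past the threshold numbered 0 in every alternative run.

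Replicate numbers are not stated to pair tumours, and same-numbered libraries did not deviate together, with correlations from -0.27 to 0.0186 and none highest with its own number. With the replicate block 0 genes passed over both models, 847 had an unadjusted p below 0.05 in limma, and 0 passed the test of the difference between models.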
